A study of Mus musculus with 2 samples.

Results

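Lymphoid-organizing chemokine and chemokine receptor genes were followed across the lung: the ligand genes Cxcl13, Ccl21a, Ccl19, Ccl17 and Ccl22 and the receptor genes Cxcr5 and Ccr7. They are 7 of the 55357 genes in the deposited matrices, taken by gene symbol, and were chosen by their CPM and their share of positive cells in the lung cell types of these same libraries, treated against PBS. Their levels in the whole library and in each cell class therefore describe the 2 libraries and carry no test.

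The study compared lungs of female Balb/C mice that bore orthotopic tumours of K7M2, a mouse osteosarcoma cell line. One group received 1V209-Cho-Lip, a liposome that carries the TLR7 agonist 1V209, and the other received PBS. Lungs of 3 mice per group were pooled into 1 droplet-based (10x Genomics) single-cell RNA library per group. A response to treatment and a difference between libraries, or between pools of mice, thus cannot be told apart for any value given here. No library of mice without tumours was analysed here, and the dose, schedule and ages are not given in the sources used here.

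CXCL13 draws B cells and follicular helper T cells through its receptor CXCR5, and CCL21 and CCL19 draw naive T cells, B cells and mature dendritic cells through CCR7. In lymph nodes and in the lymphoid clusters that can form in inflamed lung, stromal cells, lymphatic vessels and some macrophages make these ligands. CCL17 and CCL22, made mainly by dendritic cells and some macrophages, bind CCR4 on regulatory, memory and type 2 helper T cells.

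The treated library held 12228 kept cells with 45870859 unique molecular identifiers (UMIs, each standing for 1 captured RNA molecule) and the PBS library 12549 cells with 45648477. The median cell had 2503 and 2193 UMIs. Cells were clustered without the 7 genes and named by marker genes that leave them out. A class is called "-like" because it rests on RNA markers alone. Neutrophil-like cells made up 37.3% of treated and 12.7% of PBS cells, B cell-like cells 5.81% and 11.9%, and CD4 T cell-like cells 7.25% and 14.6%, so the same level per cell gives a different whole-library value. The libraries shared 268 barcode sequences. Without those barcodes the whole-library ratio of Ccl21a was 2.55 instead of 3.28, since its highest treated cell carried one of them, and that of Cxcl13 was 12.4 instead of 12.5. The other 5 ratios lay between 0.602 and 1.49.

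Levels are CPM, the UMIs of a gene in kept cells scaled to the same total of UMIs in each library or class. Ratios are treated over PBS, and the range in brackets is an exact 95% interval for counting error only, which covers neither mice nor libraries. Cxcl13 and Ccl21a were higher in the treated library, Ccr7 and Ccl22 lower, and Cxcr5 close to equal. Of the 7 genes 6 had at least 20 UMIs in kept cells (Ccl19 had 15). Among them 2 were at least 1.5-fold higher and 2 at least 1.5-fold lower in the treated library. Over the 20373 genes with at least 20 UMIs, 13.8% were that much higher and 20% that much lower, 33.9% in all. The genes were chosen on this contrast, so nothing is read from their count. Ccl22 at 0.620 and Ccr7 at 0.606 lay just inside the 1.5-fold limit, and Ccl17 at 0.669 just outside it.

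**Figure D1:**
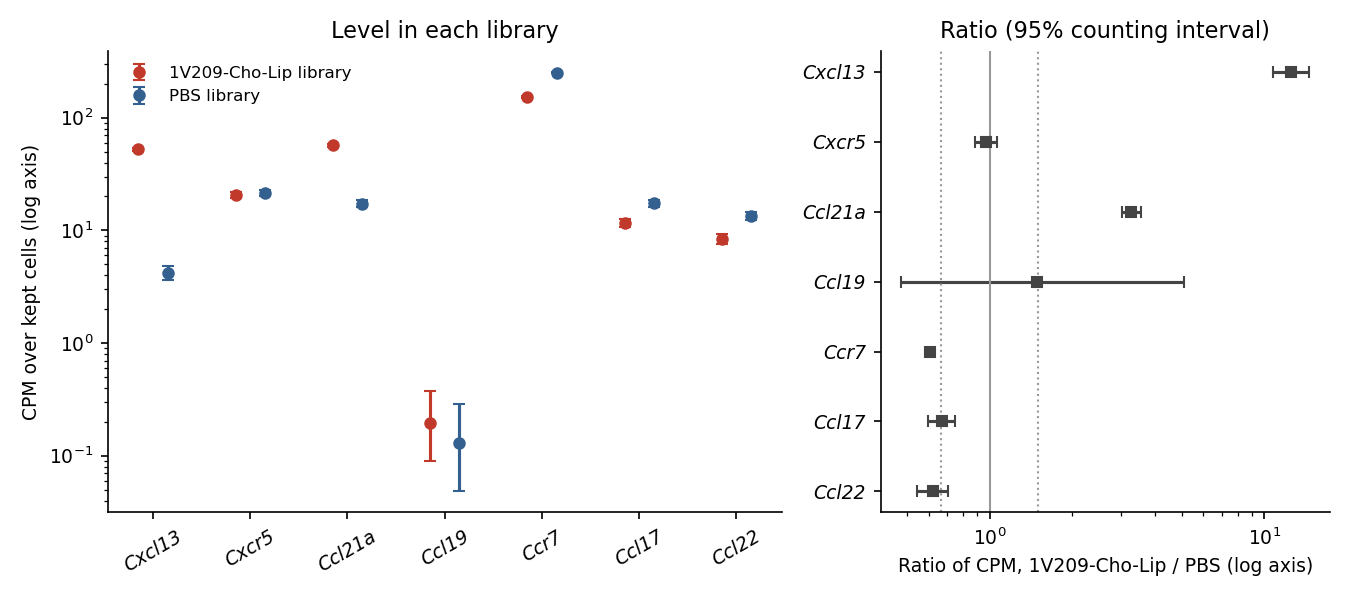
Whole-library levels of the 7 genes. Left, CPM over kept cells on a log axis, with exact 95% Poisson intervals, for the 1V209-Cho-Lip (red) and PBS (blue) libraries; right, the ratio of CPM with its exact 95% interval, with a solid line at 1 and dotted lines at 1.5-fold. Cxcl13 lies farthest above 1 with a ratio of 12.5, and the Ccl19 interval of 0.475 to 5.10 spans 1.

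Cxcl13 (ENSMUSG00000023078, chromosome 5, 95956951 to 95961068, plus strand), the B-cell-attracting ligand, had 2398 UMIs in 118 treated cells and 191 UMIs in 27 PBS cells. These were 52.3 and 4.18 CPM, a ratio of 12.5 (10.8 to 14.6). Few cells carried it: 3 cells held 50 percent of its UMIs in each library, and the 10 highest cells held 77.3% and 89.0%. Of all kept cells 0.965% and 0.215% had a Cxcl13 UMI. The share was 0.466% and 0.211% in general capillary endothelium-like cells, which lack the gene, at a median of 1492 and 1543 UMIs per cell. With each cell thinned to 1000 UMIs, which left out 949 treated and 1334 PBS cells below that depth, the shares of all cells were 0.434% and 0.116%.

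The bases before the Cxcl13 start are shown because this gene stood highest in ratio and is a textbook target of the noncanonical NF-kB pathway, which acts below the lymphotoxin beta receptor. RefSeq gives the window on GRCm38.p6 as chr5:95956689-95956938, plus strand, and the capitals mark 2 motifs.
Cxcl13 upstream: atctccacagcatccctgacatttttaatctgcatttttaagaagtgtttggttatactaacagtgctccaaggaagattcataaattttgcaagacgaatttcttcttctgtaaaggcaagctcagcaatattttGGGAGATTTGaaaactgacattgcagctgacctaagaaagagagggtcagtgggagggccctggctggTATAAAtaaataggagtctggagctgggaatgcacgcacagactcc

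The first motif in capitals, of 10 bases, is an element described for binding of RelB and p52 dimers at this gene. It begins 114 bases before the RefSeq start and is on the plus strand. On either strand it was found in 23 of 32851 windows of 250 bases before a start, or 0.0700%. TATAAA, the letters of a TATA box, begins 46 bases before the start and was found in 12.4% of windows. The classical NF-kB consensus had no match in the Cxcl13 window and one in 7.25% of all windows. The motifs found here do not overlap, and a match of letters is not a measured binding site.

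Cxcl13 came mainly from 3 groups of cells. Interstitial macrophage-like cells, marked by the complement genes C1qa, C1qb and C1qc, held 55.9% of its treated and 55.5% of its PBS UMIs. There it stood at 1023 CPM in 174 treated cells and 70.8 CPM in 260 PBS cells, a ratio of 14.5 (11.9 to 17.8). After thinning to 1000 UMIs per cell the ratio was 4.72, on 116 and 32 UMIs. Cells with a UMI numbered 15 and 10, so the UMIs per positive cell differed more than the number of positive cells. In this class 4 members had at least 20 UMIs. Of these Cxcl13 and Ccr7 were at least 1.5-fold higher and Ccl17 and Ccl22 at least 1.5-fold lower. Of the 9150 genes measured there 13.6% were as much higher and 9.67% as much lower. The Ccr7 call rested on few UMIs. Without the highest cell in each library 23 treated and 16 PBS Ccr7 UMIs remained, a ratio of 1.64.

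Within that class most Cxcl13 lay in a cluster led by Ccl8, Ccl12 and the C1q genes with Folr2 and Cd163, of 44 treated and 70 PBS cells. It held 1232 treated and 100 PBS UMIs, or 3332 and 198 CPM. In each library 8 of its cells had a Cxcl13 UMI. The treated cells had 534, 530, 108, 29, 21, 8, 1 and 1 UMIs and the PBS cells 36, 35, 15, 8, 3, 1, 1 and 1, so the sets overlapped below 36 UMIs and 3 treated cells lay above. Without the 2 highest cells in each library 168 and 29 UMIs remained. All 16 positive cells also had UMIs of C1qa, C1qb and C1qc.

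A cluster led by Prg4, Alox15, Serpinb2, Saa3, Fcna, C4b and Timd4 held 29 treated cells and 1 PBS cell. Its markers met the rule for interstitial macrophages alone. It was left unnamed because Fn1, a classical monocyte marker, was among its leading genes and none of the interstitial macrophage markers was. Being almost all of 1 library, it may reflect that library. It held 503 treated and 15 PBS Cxcl13 UMIs. Of the 29 treated cells 21 had a Cxcl13 UMI, from 1 to 102 per positive cell with a median of 8. The single PBS cell had 15, within that range, and all 22 positive cells had C1qa, C1qb and C1qc UMIs. Without this cluster the whole-library log2 ratio of Cxcl13 was 3.43 instead of 3.64.

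Adventitial fibroblast-like cells, which line larger vessels and airways and are marked by Dcn, Clec3b and Pi16, were the other source. Cxcl13 had 427 UMIs in 91 treated cells (841 CPM) and 2 UMIs in 77 PBS cells (6.15 CPM), a ratio of 137 (37.6 to 1133). With each cell thinned to 1000 UMIs it was 11.5, on 29 and 2 UMIs. The 6 positive treated cells had 180, 93, 85, 67, 1 and 1 UMIs, and the 1 positive PBS cell had 2. The treated value thus rested on 4 cells. Of the 5642 genes measured in this class 16.8% were at least 1.5-fold higher and 18.2% as much lower. All 6 had Dcn and Clec3b UMIs, while 0 had C1qa, 1 had C1qb and 0 had C1qc. Across the treated class C1qa stood at 7.88 CPM, 0.165% of its level in interstitial macrophage-like cells, whereas Cxcl13 stood at 82.2% of its level there.

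One PBS barcode outside these groups held 49 Cxcl13 UMIs, 25.7% of the PBS total. It clustered with plasma cell-like cells led by antibody variable genes, yet among its 8635 UMIs were 46 of Dcn and 0 of Jchain, Mzb1, C1qa, C1qb or C1qc. Its genes go against its class name. Dcn is a fibroblast marker, but the barcode had 0 UMIs of Clec3b, which was seen in 98.7% of PBS adventitial fibroblast-like cells. Its cell type was thus not settled. The adventitial class of that library had 2 Cxcl13 UMIs. Mesothelium-like cells followed with 36 and 10 UMIs, of which 1 treated cell held 31. B cell-like cells had 18 and 0 UMIs, at least 10.0-fold higher in treated against a floor of 3 counts per library. One treated cell held 14 of the 18, and the other 4 UMIs were 1.96 CPM. Neutrophil-like cells had 26 UMIs in 25 treated cells and 0 in PBS, at 2.26 CPM, a level close to the 2.55 CPM of general capillary cells.

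**Figure D2:**
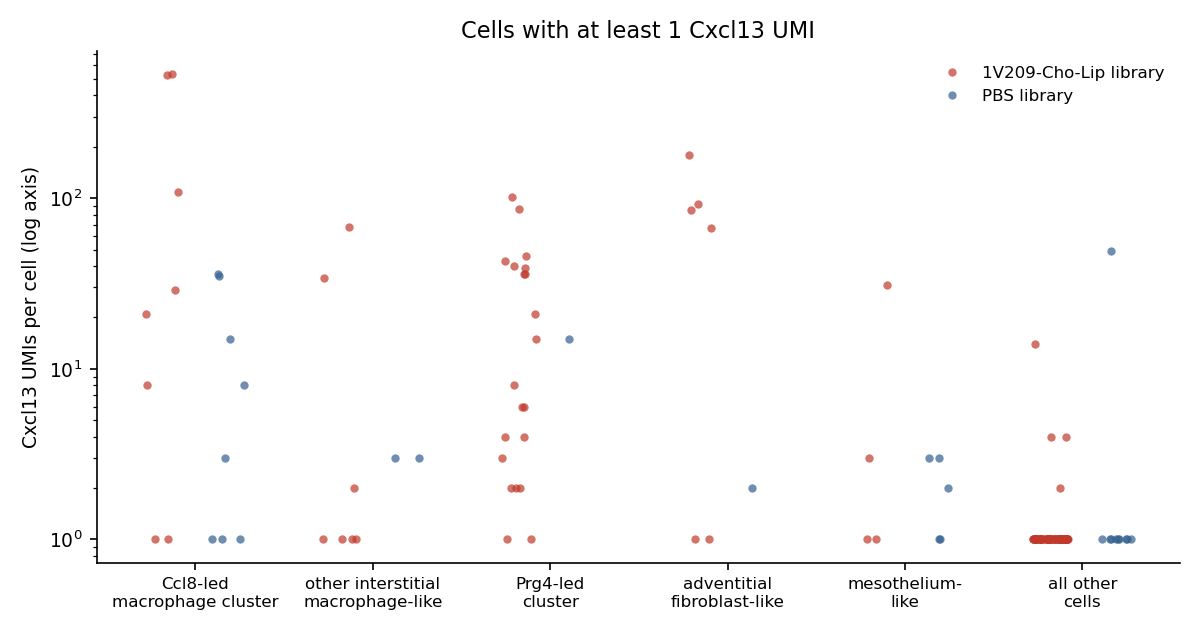
Cxcl13 UMIs in every kept cell with at least 1, on a log axis, by group of cells and library (1V209-Cho-Lip red, PBS blue; points are spread sideways for clarity). The 2 highest treated cells, with 534 and 530 UMIs, are in the Ccl8-led macrophage cluster, and the PBS point at 49 among all other cells is the Dcn-positive barcode.

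In the treated library the class levels of Cxcl13 ran from interstitial macrophage-like (1023 CPM) over adventitial fibroblast-like (841) to mesothelium-like (54.0) and B cell-like cells (8.82), each apart from the next by its counting interval. The place of B cell-like cells rested on 1 cell, without which they stood at 1.96 CPM. From pericyte-like cells down (6.67 and less) neighbours overlapped. In PBS the order was plasma cell-like, from the 1 barcode above (142), interstitial macrophage-like (70.8) and mesothelium-like (25.6), again apart, with pericyte-like (16.6) and adventitial fibroblast-like cells (6.15) overlapping their neighbours.

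Cxcr5 (ENSMUSG00000047880, chromosome 9, 44511787 to 44561877, minus strand), the receptor for CXCL13, had 949 treated and 978 PBS UMIs. These were 20.7 and 21.4 CPM, a ratio of 0.966 (0.882 to 1.06). The near-equal totals had different sources. B cell-like cells held 59.3% of the treated and 85.0% of the PBS UMIs, and neutrophil-like cells 27.5% and 3.07%.

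In B cell-like cells Cxcr5 stood at 276 CPM in 710 treated and 244 CPM in 1489 PBS cells, a ratio of 1.13 (1.01 to 1.26). A UMI was seen in 45.1% and 37.4% of cells, and in 23.6% and 20.7% after thinning. AT2-like epithelial cells, which should lack the gene, showed one in 0.877% and 2.20% of cells at a deeper median of 9012 and 6446 UMIs, against 2363 and 1973 in B cell-like cells. No cell had more than 17 UMIs. Of the 3 members with at least 20 UMIs in this class 1, Ccl21a, was at least 1.5-fold higher and 0 as much lower, beside 12.4% and 6.72% of 10455 genes. That call rested on 1 treated cell with 41 of the 42 Ccl21a UMIs, and without it 1 treated UMI remained against 2 in PBS. S100a8, a neutrophil gene, stood at 658 CPM in treated and 93.4 CPM in PBS B cell-like cells, and its part in any B-cell value was not tested.

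Neutrophil-like cells had 261 treated and 30 PBS Cxcr5 UMIs, or 22.7 and 12.6 CPM, a ratio of 1.80 (1.23 to 2.72). They lay in 234 of 4559 and 27 of 1593 cells, with at most 3 UMIs in a cell. Shares of cells with a UMI were 5.13% and 1.69%, or 2.13% and 0.972% after thinning. Of 4 members with at least 20 UMIs in this class, 3 were at least 1.5-fold higher (Cxcl13, Cxcr5 and Ccl21a) and 1, Ccr7, as much lower, beside 11.6% and 21.9% of the 10609 genes measured there. One treated cell held 39 of the 53 Ccl21a UMIs, against 5 in PBS. Without the highest cell in each library 14 and 2 remained (1.22 and 0.841 CPM), a ratio of 1.44, below 1.5-fold. Different clusters held most of the class: one led by Cstdc5 and Stfa2 had 1798 treated and 52 PBS cells, and one led by Ccrl2 and Il23a had 571 and 1012. In the Ccrl2-led cluster Cxcr5 was 13.5 and 13.1 CPM. In a cluster led by Ifitm1 and Acod1, of 1293 and 325 cells, it was 24.6 (18.9 to 31.4) and 12.2 (4.49 to 26.6).

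The neutrophil values were set beside other B-cell genes. The Cxcr5 level of neutrophil-like cells was 8.22% of the B cell-like level in treated and 5.17% in PBS. For Cd79a, Cd79b, Ms4a1, Pax5, Bank1 and Fcer2a the same percentage ran from 0.178% (Cd79a) to 0.716% (Bank1) in treated and from 0.153% (Cd79b) to 2.92% (Bank1) in PBS. Cxcr5 was thus above these 6 markers in both libraries. Of the 234 treated neutrophil-like cells with Cxcr5, 10 (4.27%) had a UMI of one of them, against 149 (3.45%) of those without Cxcr5. In PBS these were 2 of 27 (7.41%) and 120 (7.66%). Cells with Cxcr5 were deeper, at a median of 2733 against 2267 UMIs in treated and 1526 against 1392 in PBS.

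The last 110 bases of the Cxcr5 gene overlap the end of Bcl9l on the other strand, a coactivator gene of Wnt signalling. Whether counting used strand is not given in the sources used here. Bcl9l had 117 and 16 UMIs in neutrophil-like cells (10.2 and 6.73 CPM) and 28 and 52 in B cell-like cells (13.7 and 15.3 CPM). The part of this overlap in the neutrophil counts was not tested.

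**Figure D3:**
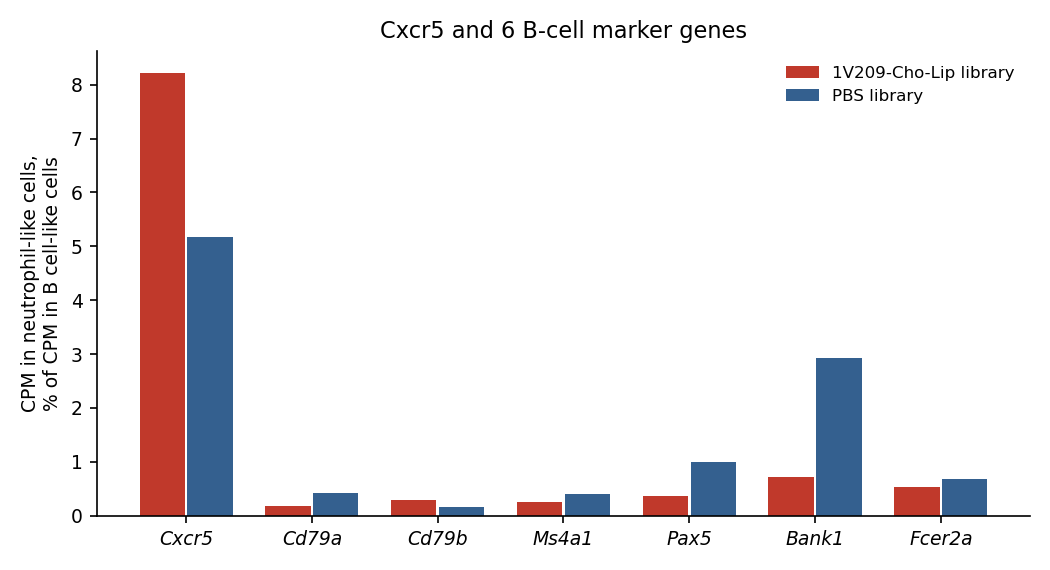
Level in neutrophil-like cells as a percentage of the level in B cell-like cells of the same library, from CPM of summed UMIs, for Cxcr5 and 6 B-cell marker genes (1V209-Cho-Lip red, PBS blue). Cxcr5 stands at 8.22% and 5.17%, above each marker, the nearest being Bank1 in PBS at 2.92%.

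Other classes had little Cxcr5. Mature migratory DC-like cells came next by level, with 9 and 11 UMIs (54.0 and 36.8 CPM), below B cell-like cells and overlapping the class under them in both libraries. CD4 T cell-like cells, which would include follicular helper T cells, had 26 UMIs in 23 of 886 treated and 24 UMIs in 21 of 1837 PBS cells, or 8.86 and 4.83 CPM, a ratio of 1.84 (1.01 to 3.34). In regulatory T cell-like cells it had 12 and 5 UMIs, a ratio of 3.31 (1.08 to 12.0). Of the 3 members measured in CD4 T cell-like cells Cxcr5 was at least 1.5-fold higher and Ccl21a, with 2 and 25 UMIs of which 1 PBS cell held 22, as much lower, beside 12.0% and 5.72% of 10943 genes. The Cxcr5-positive share of CD4 T cell-like cells was 2.60% and 1.14%, or 0.698% and 0.115% after thinning. Among B cell-like cells with Cxcr5, 83.4% of treated and 82.4% of PBS cells also had a Ccr7 UMI, so most were positive for both receptors.

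Ccl21a (ENSMUSG00000094686, chromosome 4, 42772860 to 42773993, minus strand), the CCR7 ligand of lymphatic vessels and lymph node stroma, had 2603 UMIs in 68 treated and 790 UMIs in 33 PBS cells. These were 56.7 and 17.3 CPM, a ratio of 3.28 (3.03 to 3.56). The ratio turned on barcodes called doublets, which are left out. They held 25.7% of the treated but 62.5% of the PBS Ccl21a UMIs, and 1 PBS doublet call of 13000 UMIs carried 945 of them. With doublets kept, the log2 ratio was 0.82 instead of 1.71.

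**Figure D4:**
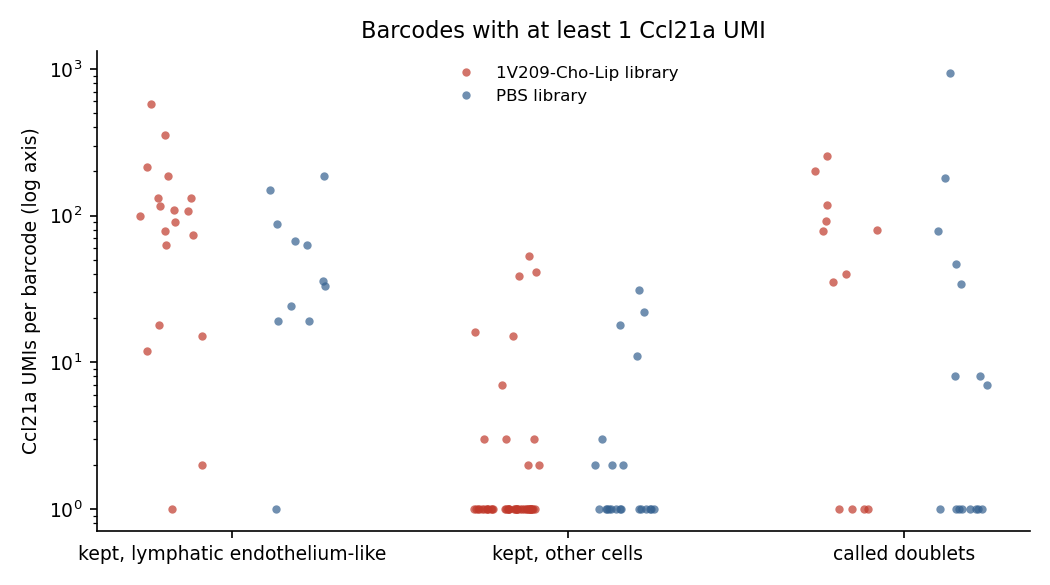
Ccl21a UMIs in every barcode with at least 1, on a log axis, for kept lymphatic endothelium-like cells, other kept cells and barcodes called doublets (1V209-Cho-Lip red, PBS blue; points are spread sideways). The highest barcode of all, with 945 UMIs, is a PBS doublet call, while the highest kept cells have 575 (treated) and 187 (PBS).

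Lymphatic endothelium-like cells, named by Mmrn1, Prox1, Reln and other markers, held 91.5% and 86.7% of the Ccl21a UMIs. In this class it stood at 16884 CPM in 42 treated cells and 7982 CPM in 38 PBS cells, a ratio of 2.12 (1.94 to 2.31). Over the 1910 genes with at least 20 UMIs in the class 19.2% were at least 1.5-fold higher and 16.2% as much lower, and Ccl21a was the only member measured. A Ccl21a UMI was seen in 19 treated and 11 PBS cells, with medians of 99 and 36 UMIs and highest values of 575 and 187.

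The cluster held other cells as well. Of the 19 and 11 cells with Ccl21a, 18 and 11 had a Prox1 or Mmrn1 UMI, against 2 of 23 and 3 of 27 cells without it. Among the positive cells alone, a set chosen by Ccl21a itself, it stood at 35290.3 CPM in treated and 33026 CPM in PBS. Without the 575-UMI cell, whose barcode is found in both libraries, the treated value was 29297 CPM. The whole class then stood at 13358 CPM in treated, a ratio of 1.67 instead of 2.12. With doublets kept and clustered together with the other cells the class had 21 cells in each library, at 34869.9 and 32001 CPM, a ratio of 1.09 (1.02 to 1.16). S100a8 stood at 1269 CPM in the treated and 11.7 CPM in the PBS class, and its part was not tested. Outside the class general capillary endothelium-like cells came second, with 105 and 50 UMIs (33.5 and 13.9 CPM). One shallow cluster held 93 of these in 6 treated cells and 49 in 2 PBS cells. Of all kept cells with 5 or more Ccl21a UMIs, 21 of 23 treated and 14 of 14 PBS cells had a Prox1 or Mmrn1 UMI. Whether the few capillary-like cells are lymphatic was not tested. Positive shares in general capillary endothelium-like cells were 0.700% and 0.158%. In B cell-like cells, which do not make the ligand, they were 0.282% and 0.0672%.

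The mouse genome holds near-identical copies of Ccl21a, so the deposited counts can mix or drop them. Against the GENCODE vM21 transcript of Ccl21a, Ccl21b and Gm10591 matched over 402 coding bases with 2 mismatches each (99.50%). Ccl21d matched over 870 bases with 6 mismatches (99.31%) and Gm13304 over 837 bases with 5 (99.40%). All 4 copies carry the same 2 coding substitutions, T84A and C194T, counted from 1 at the first coding base, with the Ccl21a base first. The stretches are shown because these are the only coding letters that tell the genes apart, and the capital is the differing base.
Ccl21a around position 84: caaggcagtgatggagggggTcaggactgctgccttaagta
Ccl21b around position 84: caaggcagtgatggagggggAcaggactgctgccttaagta
Ccl21a around position 194: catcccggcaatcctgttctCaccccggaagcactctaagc
Ccl21b around position 194: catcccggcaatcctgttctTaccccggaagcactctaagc

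In the last 300 bases of the transcript, where reads would gather if these are 3′ libraries, Ccl21d and Gm13304 each differ from Ccl21a at 3 bases. Over all deposited barcodes Ccl21a had 3507 treated and 2106 PBS UMIs. Ccl21b, Ccl21d and Gm10591 had 0 in both libraries and Gm13304 had 1 and 0. Reads that matched several copies equally cannot be seen in these counts, so the Ccl21a values are uncertain to that extent.

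Ccl19 (ENSMUSG00000071005, chromosome 4, 42754525 to 42756577, minus strand), the other CCR7 ligand, was near the limit of detection. It had 9 UMIs in 8 treated cells and 6 UMIs in 6 PBS cells, a ratio of 1.49 (0.475 to 5.10), so no difference was detectable at this depth. All 15 UMIs lay in mesenchymal classes. Smooth muscle or myofibroblast-like cells had 5 and 3 UMIs (27.4 and 28.4 CPM) and pericyte-like cells 1 and 1. Adventitial fibroblast-like cells had 3 treated UMIs and alveolar fibroblast-like cells 2 PBS UMIs, and the intervals of all these neighbours overlapped. None was seen in 710 treated B cell-like cells, which allows up to 0.423% of such cells to have a Ccl19 UMI at this depth and sets no limit on cells that express it.

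Ccl19 also has copies. Ccl19-ps3 matched it over 324 bases with 0 mismatches, Gm12407 with 2 and Ccl19-ps1 with 3 over 325 bases, and Gm2564 matched over 707 bases at 98.87%. None of these 4 had a UMI in any deposited barcode, against 12 treated and 9 PBS UMIs of Ccl19. A gene on the other strand, 4930578G10Rik, spans both Ccl19 and Ccl21a. It had 24 and 14 UMIs in smooth muscle or myofibroblast-like cells, more than Ccl19 itself, and 4 and 0 in lymphatic endothelium-like cells.

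Ccr7 (ENSMUSG00000037944, chromosome 11, 99144196 to 99155077, minus strand), the receptor for CCL21 and CCL19, had the most UMIs of the 7 genes. It had 6982 UMIs in 1581 treated cells and 11475 UMIs in 3011 PBS cells, or 152 and 251 CPM, a ratio of 0.606 (0.588 to 0.624). Cells with a UMI made up 12.9% of treated and 24.0% of PBS cells, and 9.24% and 18.1% after thinning. With class shares set equal in both libraries the log2 ratio was -0.02, against -0.72 as observed, and without neutrophil-like cells it was -0.39.

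CD4 T cell-like cells held 44.0% and 46.3% of the Ccr7 UMIs, and B cell-like cells 29.4% and 28.9%. In CD4 T cell-like cells the Ccr7 level was 1046 CPM in treated and 1069 CPM in PBS, with a ratio of 0.978 (0.935 to 1.02). In B cell-like cells it was 1005 CPM in treated and 974 CPM in PBS, with a ratio of 1.03 (0.976 to 1.09). Regulatory T cell-like cells had 272 and 269 CPM (1.01, 0.858 to 1.19). CD8 T cell-like cells had 333 CPM in 45 treated and 224 CPM in 258 PBS cells, a ratio of 1.49 (1.09 to 2).

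Mature migratory DC-like cells, the dendritic cells that travel to lymph nodes and are marked by Fscn1, Il4i1 and Il12b, had the highest Ccr7 level. It was 6229 CPM in 20 treated and 5032 CPM in 43 PBS cells, a ratio of 1.24 (1.14 to 1.34). A Ccr7 UMI was seen in 19 of 20 and 43 of 43 cells, from 6 to 91 in treated with a median of 51.0, and from 4 to 95 in PBS with a median of 34.0, so the cells of the 2 libraries overlapped. The cells were deeper in the treated library, at a median of 8493 against 5773 UMIs. A Ccr7 UMI was also found in 3.95% and 8.42% of AT2-like cells, which should lack it, at 9012 and 6446 UMIs. In this class 4 members had at least 20 UMIs, of which only Ccl17 was at least 1.5-fold higher and 0 as much lower, where 18.9% and 13.9% of 3088 genes were. The Ccl17 ratio of 1.54 in this class was 1.43 with cells assigned one by one by their markers and 1.31 after thinning, both under 1.5-fold. After these cells the level ran to CD4 T cell-like and B cell-like cells in both libraries, whose intervals overlapped in treated and were apart in PBS.

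**Figure D5:**
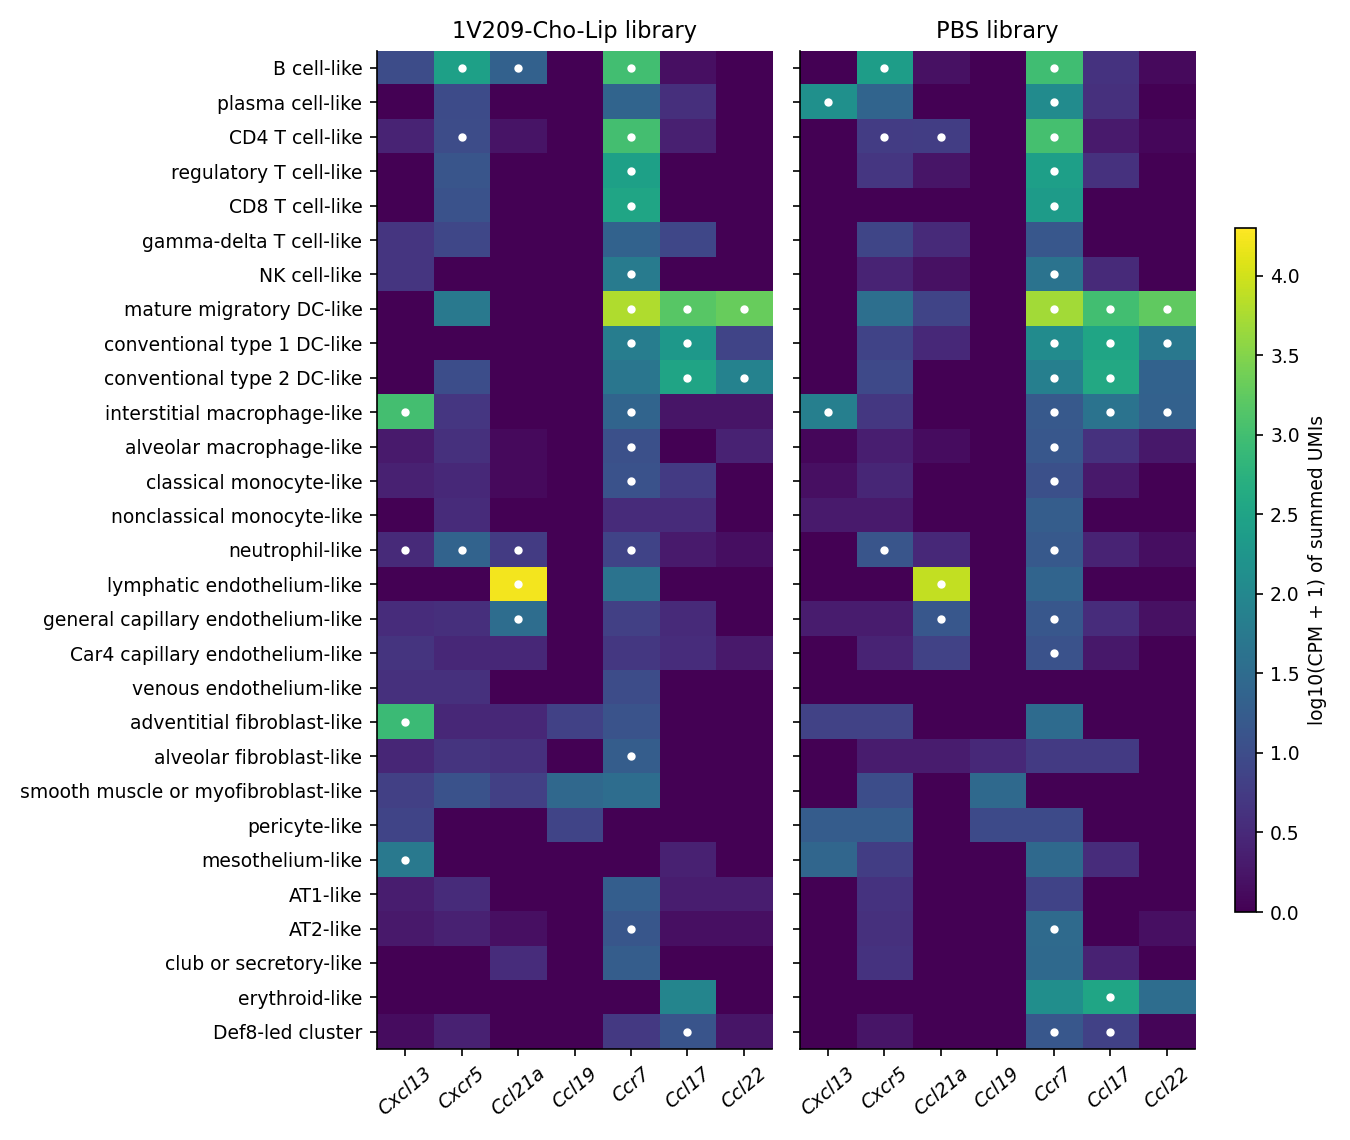
Level of each gene in classes that had 20 or more cells in both libraries, as log10(CPM + 1) of summed UMIs, 1V209-Cho-Lip library left and PBS library right; a white dot marks at least 20 UMIs. Ccr7, Ccl17 and Ccl22 are highest in mature migratory DC-like cells and Ccl21a in lymphatic endothelium-like cells in both libraries, whereas the Cxcl13 level of adventitial fibroblast-like cells differs between them (841 against 6.15 CPM).

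Ccl17 and Ccl22 lie near each other on chromosome 8 and both encode CCR4 ligands. Ccl17 (ENSMUSG00000031780, 94810453 to 94812036, plus strand) had 533 UMIs in 92 treated and 793 UMIs in 150 PBS cells, or 11.6 and 17.4 CPM, a ratio of 0.669 (0.598 to 0.747). Ccl22 (ENSMUSG00000031779, 94745590 to 94751699, plus strand) had 382 UMIs in 46 and 613 UMIs in 70 cells, or 8.33 and 13.4 CPM, a ratio of 0.620 (0.544 to 0.706). With class shares set equal the log2 ratios were -0.26 for Ccl17 and 0.03 for Ccl22, against -0.58 and -0.69 as observed. Mature migratory DC-like cells made up 0.164% of treated and 0.343% of PBS cells.

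The upstream windows of both genes are shown because the genes were found in the same cells. RefSeq places them on GRCm38.p6 at chr8:94810203-94810452 (Ccl17) and chr8:94745434-94745589 (Ccl22), both plus strand, the latter ending at the GENCODE start. The capitals mark TTC and GAA spaced by 4 bases, the form that STAT6, a factor acting below the IL-4 receptor, is known to bind.
Ccl17 upstream: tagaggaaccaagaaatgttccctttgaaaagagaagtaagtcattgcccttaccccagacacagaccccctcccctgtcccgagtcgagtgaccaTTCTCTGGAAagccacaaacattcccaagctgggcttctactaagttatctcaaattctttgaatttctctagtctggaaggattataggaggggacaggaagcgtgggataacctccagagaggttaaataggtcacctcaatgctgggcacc
Ccl22 upstream: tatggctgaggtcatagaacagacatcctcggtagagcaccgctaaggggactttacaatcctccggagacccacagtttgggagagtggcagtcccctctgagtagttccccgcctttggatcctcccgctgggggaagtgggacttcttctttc

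The Ccl17 match begins 154 bases before its start. The motif reads the same on both strands and is found in 5.85% of windows of 250 bases. The 5 motifs searched on both strands were the NF-kB consensus, the RelB and p52 element, TATAAA, the STAT6 form and GAAA repeated after 2 bases. No other was found in the Ccl17 window, and none in the 156 bases shown for Ccl22. The GAAA repeat, a form bound by interferon regulatory factors, occurs in 2.98% of windows.

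In mature migratory DC-like cells Ccl17 had 254 UMIs in 17 of 20 treated and 295 UMIs in 34 of 43 PBS cells, or 1524 and 987 CPM, a ratio of 1.54 (1.30 to 1.83). Positive cells ranged from 1 to 47 UMIs in treated with a median of 13 and from 1 to 40 in PBS with a median of 4.50, so they overlapped. Ccl22 had 336 UMIs in 17 and 535 UMIs in 39 cells, or 2016 and 1790.0 CPM, a ratio of 1.13 (0.980 to 1.29). This class held 88.0% and 87.3% of all Ccl22 UMIs but 47.7% and 37.2% of those of Ccl17. Both genes were seen together in 15 of 20 and 32 of 43 cells. All but 1 treated cell with Ccl22 in this class, and every such PBS cell, also had Ccr7. In B cell-like cells, which should lack them, Ccl17 was seen in 0.141% and 0.403% of cells and Ccl22 in 0 of 710 and 1 of 1489, at 2363 and 1973 UMIs per cell. S100a8 stood at 1350.3 and 348 CPM in mature migratory DC-like cells, and its part was not tested.

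Conventional dendritic cells carried most of the remaining Ccl17. Conventional type 1 DC-like cells, marked by Xcr1 and Clec9a, had 89 UMIs in 12 of 38 treated and 159 UMIs in 16 of 55 PBS cells, or 194 and 332 CPM, a ratio of 0.584 (0.445 to 0.761). Highest cells had 29 and 39 UMIs. A cluster of 31 and 49 cells, which held 58 and 142 of these Ccl17 UMIs, was led by Xcr1 and Clec9a. Mgl2 and Cd209a, markers of type 2 cells, were also among its leading genes, so the class may mix both types. In the class Ccl22 had 3 UMIs, all in 1 treated cell, and 25 UMIs in 10 PBS cells, a ratio of 0.125 (0.0242 to 0.410). Ccr7 had 30 and 56 UMIs, a ratio of 0.559 (0.346 to 0.886). All 3 members measured in this class were thus at least 1.5-fold lower in treated, as were 13.6% of its 5466 genes, while 15.6% were as much higher. When cells were instead assigned one by one by their markers, the log2 ratio of Ccl17 turned from -0.78 to 0.66, on 14 and 12 UMIs.

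Conventional type 2 DC-like cells, marked by Cd209a and Mgl2, had 101 Ccl17 UMIs in 10 of 35 treated and 150 in 13 of 44 PBS cells, or 319 and 396 CPM, a ratio of 0.806 (0.620 to 1.04). The class joined 2 clusters of unequal weight in the libraries. One led by Mgl2 and Cd209a, of 26 and 17 cells, held 101 and 148 of the UMIs, or 436 and 854 CPM, a ratio of 0.510 (0.392 to 0.662). The other, led by Cd7, had 9 and 27 cells. One PBS cell held 64 UMIs. After thinning the ratio of the class turned to 2.67, on 17 and 8 UMIs. Ccl22 in the class had 25 UMIs in 11 treated and 8 UMIs in 5 PBS cells, a ratio of 3.74 (1.64 to 9.59), the opposite direction to Ccl17. Ccr7 had 15 and 27 UMIs there, a ratio of 0.665 (0.329 to 1.30), and 0.928 without the highest cell in each library. Of the 3 members measured Ccl22 was thus at least 1.5-fold higher and Ccr7 as much lower. Of the 4531 genes in the class 16.7% were at least 1.5-fold higher and 21.0% as much lower.

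Interstitial macrophage-like cells carried Ccl17 and Ccl22 almost only in the PBS library. Ccl17 had 1 treated and 64 PBS UMIs, a ratio of 0.0179 (4.45e-04 to 0.103), and Ccl22 had 1 and 31, a ratio of 0.0369 (9.05e-04 to 0.221). The PBS UMIs lay in 6 and 4 of 260 cells, the highest with 29 and 19, so both differences rest on few cells. Alveolar macrophage-like cells had 0 treated and 17 PBS Ccl17 UMIs, at least 3.89-fold lower against a floor of 3 counts. A cluster led by Def8, of very deep cells (68999 and 51558 UMIs at the median), held 6% and 5.04% of the Ccl17 UMIs, though at only 12.1 and 5.86 CPM. In PBS erythroid-like cells had 20 Ccl17 UMIs in 5 cells (333 CPM), a level that overlapped those of both conventional DC classes.

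The 5 genes whose pattern was most like each member were sought over 58 points, 29 classes in 2 libraries, by Pearson r of log2(CPM + 10) among 14456 genes. The points share library, depth and cell identity, so r is a description without a test. For Ccl21a these were Mmrn1 (0.98), Nts (0.96), Prox1 (0.96), Klhl4 (0.94) and Btnl9 (0.91), of which Mmrn1 and Prox1 had named the lymphatic class. For Ccl22 they were Mab21l3 (0.95), H2-M2 (0.93), Plppr4 (0.91), Il12b (0.91) and Zmynd15 (0.91), the last 2 being markers of the mature migratory class. For Ccl17 they were Gcsam (0.91), Gpr141b (0.90), Timd4 (0.88), Strip2 (0.88) and Pkib (0.87).

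For Cxcr5 the nearest patterns were Spib (0.84), Ell3 (0.82) and 3 antibody variable segments (0.81 to 0.82). For Ccr7 they were Il21r (0.79), P2ry10 (0.79), Gramd3 (0.78), Stat4 (0.77) and Clec2i (0.76). Cxcl13 had the weakest likeness, with Scamp5 (0.63), Ccl8 (0.60), Vsig4 (0.58), Cfb (0.58) and Col14a1 (0.57), a mix of macrophage and fibroblast genes. Ccl19 had too few UMIs to compare.

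Other genes of these pathways are given as whole-library ratios, where the median of all 20373 genes was a log2 ratio of -0.19. Of all these genes 13.8% were at least 1.5-fold higher and 20% as much lower, the background for each list count below. Among 17 lymphotoxin and noncanonical NF-kB genes 4 were at least 1.5-fold higher, 2 as much lower, and the median was 0.09. The ligand gene Ltb, which acts on stromal cells that make CXCL13, was 208 and 195 CPM (1.07, 1.04 to 1.10). Its partner Lta was 0.741 and 1.77 CPM (0.418, 0.271 to 0.631). The TNF-family ligand gene Tnfsf14 was 8.98 and 2.96 CPM (3.04, 2.49 to 3.72), the TNF receptor gene Tnfrsf1a 234 and 111 CPM (2.11, 2.04 to 2.18), and Nfkb2, which encodes p52, 61.7 and 76.5 CPM (0.807, 0.767 to 0.848). Tnfrsf1b, the other TNF receptor gene, had a ratio of 1.34.

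Of 16 follicular helper T and germinal centre genes 14 were measured; 2 were higher, 7 lower, and the median was -0.68. Icos, the co-stimulatory receptor of activated T cells, was 51.5 and 102 CPM (0.506, 0.481 to 0.532), and Fcer2a, a receptor of mature B cells, 11.9 and 30.3 CPM (0.394, 0.356 to 0.435). Bcl6, which encodes the factor that directs the follicular helper fate but is also made by myeloid cells, was 47.3 and 27.8 CPM (1.70, 1.59 to 1.83). The IL-21 receptor gene Il21r had a ratio of 0.5 and the T-cell factor gene Maf one of 0.983. With class shares set equal the median of the list was -0.30.

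Among 15 stromal organizer and high endothelial venule genes 13 were measured; 5 were higher, 3 lower, and the median was 0.04. Cxcl12, the CXCR4 ligand, was 78.2 and 127 CPM (0.617, 0.592 to 0.643), Il7, the lymphocyte survival factor, 1.96 and 3.94 CPM (0.498, 0.382 to 0.644), and the adhesion gene Icam1 247 and 157 CPM (1.58, 1.53 to 1.63). Bst1 had a ratio of 2.06, Clu of 0.923 and Ccl20, the CCR6 ligand, of 2.70 (1.09 to 7.6) on 19 and 7 UMIs. Among 13 other receptors and scavengers 3 were higher and 6 lower, with a median of -0.15. Ackr4, the scavenger of CCL19 and CCL21, was 2.16 and 5.02 CPM (0.430, 0.336 to 0.547). The ratio was 2.84 (1.15 to 7.96) for the venular chemokine-binding gene Ackr1 on 20 and 7 UMIs, 1.85 for Ccrl2, 1.27 for Cxcr4 and 0.899 for S1pr1, the receptor gene for lymphocyte egress.

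Among 14 reported inducers of Ccl17 and Ccl22 and their receptors 6 were higher and 3 lower, with a median of -0.01. Csf2, which encodes GM-CSF, was 2.59 and 10.1 CPM (0.256, 0.207 to 0.313), whereas the receptor chain genes Csf2rb at 257 and 118 CPM (2.18, 2.11 to 2.25) and Il13ra1 at 97.3 and 30.6 CPM (3.18, 2.99 to 3.38) were higher. Il4ra, the IL-4 receptor, was 96.1 and 97.8 CPM (0.982, 0.942 to 1.02). Csf2ra had a ratio of 1.92, and Il1rl1, which encodes the IL-33 receptor, one of 0.402. These sums move with the class shares given above, and how much of each difference they make was computed only for the list medians and the 7 members.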

How the data were processed

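The deposited files hold counts of unique molecular identifiers (UMIs) per gene and barcode, produced by the authors with Cell Ranger 9.0.1 per the file headers and with mm10 per the submitters' processing notes; the annotation release is not given in the sources used here. Barcodes needed at least 500 UMIs, 200 genes and at most 20% mitochondrial UMIs. Doublets were called per library with Scrublet in Scanpy 1.11.5 (expected rate 0.8% per 1000 barcodes) and left out: 1492 treated (10.9%) and 2011 PBS barcodes (13.8%).

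Clustering joined the libraries on 2000 variable genes from each, with 30 components, 15 neighbours and Leiden resolution 2. The 7 genes and other Ccl and Cxcl genes were left out, as were listed pathway genes that were not cell type markers. Larger mixed or unnamed clusters were divided again at 0.5. So were larger clusters with marker RNA of mature migratory or conventional type 2 DCs, lymphatic endothelium, or regulatory or gamma-delta T cells. In all 16 clusters were divided, giving 91. A cluster was named where 3 or more of a type's markers, and 50% or more of its list, exceeded all other cells by log2 1. Clusters with more markers of another class among their 10 leading genes were left unnamed. Mixed and unnamed clusters held 2.88% of treated and 1.55% of PBS cells. Members, lists and markers were chosen with earlier results of these data known; the naming rules, the comparison of Cxcr5 with B-cell markers, the copies found by sequence, the motifs and the cells and clusters singled out were settled after values were seen.

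UMIs were summed per library or class. CPM carry exact Poisson, ratios exact conditional binomial and shares Clopper-Pearson intervals, all for counting error only, which UMIs of 1 cell do not strictly follow. With 1 library per group no test between groups exists. The list genes named were taken from those highest in UMIs (4 at most) together with each list's extreme ratios. Some named genes are not reported here. Where a count was 0 a floor of 3 was used, and 0.5 counts were added for list medians. The interval code was tested on simulated data. Gene positions are GENCODE vM21; promoter windows, found for 5 of the 7 genes, are RefSeq. The software was pandas 2.3.3, scipy 1.17.1 and numpy 2.4.6 under Python 3.11.15.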

Additional observations from a re-analysis of the deposited data

How the results depend on the processing

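Values here are log2 ratios of treated over PBS. Of 174 recomputed values over 31 results, 113 stayed within the counting interval of the reported value (or within 0.1 for list medians), 58 moved beyond it without turning a called value, and 3 called values changed sign: Ccl22 with class shares set equal (0.03), Ccl17 in conventional type 1 DC-like cells with each cell assigned by its own markers (0.66) and the receptor and scavenger list with TMM scaling (0.04). Counting values whose interval spans no difference and lists near 0, 15 changed sign: also Cxcr5, Ccr7 in B cell-like cells, Ccl22 in mature migratory DC-like cells, Ccl17 in conventional type 2 DC-like cells and the stromal and inducer lists at the values given next, and Ccl19, with -0.28 for class shares set equal and -0.42 for thinning (level and share of cells). CPM ratios lay 0.19 below those scaled by median-of-ratios or TMM.

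For the whole library, leaving out neutrophil-like cells gave Cxcl13 3.97, Ccl21a 2.03, Ccr7 -0.39, Ccl17 -0.27 and Ccl22 -0.37. The mean of each cell's CPM gave Cxcl13 2.61, Cxcr5 -0.36, Ccl21a 0.98, Ccr7 -0.98, Ccl17 -0.77 and Ccl22 -1.01. Thinning to 1000 UMIs gave Cxcl13 2.45, Cxcr5 -0.27, Ccl21a 1.42 and Ccr7 -1.01. Class shares set equal gave Cxcr5 0.30, Ccl21a 1.10, Ccr7 -0.02 and Ccl17 -0.26. Both scalings gave Cxcr5 0.14, Ccl21a 1.91, Ccr7 -0.53 and Ccl17 -0.39; Ccl22 was -0.49 with median-of-ratios and -0.50 with TMM. Doublets kept, or all deposited barcodes, gave Ccl21a 0.82 and Ccr7 -0.65. At least 1000 UMIs per cell gave Ccl21a 1.95, and a denominator without mitochondrial and ribosomal genes Ccr7 -0.82.

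Within classes, thinning gave Cxcl13 2.24 in interstitial macrophage-like and 3.53 in adventitial fibroblast-like cells, Ccr7 0.19 in mature migratory DC-like cells, and Ccl17 -1.17 in conventional type 1 and 1.42 in conventional type 2 DC-like cells. Assigning cells one by one gave Ccr7 0.02 and Ccl22 -0.07 in mature migratory DC-like cells, Ccl21a 0.78 in lymphatic endothelium-like cells and Ccl17 -2.81 in conventional type 2 DC-like cells. Doublets kept gave Ccl21a 0.12 in lymphatic endothelium-like cells, Ccr7 -0.09 in B cell-like cells and Ccl17 -1.85 in conventional type 2 DC-like cells. Ccl21a in lymphatic endothelium-like cells was 0.56 at Leiden resolution 1 and 0.54 with clustering seed 1. These rested on 20 treated and 16 PBS cells, and on 20 and 17. The Ccl21a value of 0.78 rested on 21 and 14 cells. The Ccl17 value of -2.81 rested on 12 and 17 cells, and that of -1.85 on 1 and 7 UMIs in 16 and 41 cells. The thinned share of cells with Cxcr5 was -0.22.

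List medians with TMM were 0.29 (lymphotoxin), -0.49 (germinal centre), 0.23 (stromal) and 0.18 (inducers), with class shares set equal -0.30 (germinal centre), -0.09 (stromal) and 0.29 (inducers), and -0.38 for receptors and scavengers at 100 UMIs. The causes were not tested. At Leiden resolution 1 Cxcl13 in adventitial fibroblast-like cells and Ccl17 in both conventional DC classes gave no value. No cluster was named adventitial fibroblast or conventional type 1 DC there, and the type 2 class had 11 treated and 29 PBS cells. Added after the data were seen, leaving out the highest cell in each library moved none of the 7 whole-library and 11 class ratios it was run for beyond its interval; for Cxcl13 in adventitial fibroblast-like cells it left no PBS UMI and gave no ratio. Leaving out the Prg4-led cluster, run for whole-library ratios alone, moved none of the 7. No paired analysis was possible because each group is 1 library. Single libraries of pooled mice carry no replicate error, and several class values rest on fewer than 20 cells.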
